A study of Homo sapiens with 27 samples.

Results

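The genes that bring newly made proteins into the endoplasmic reticulum (ER) and ship them to and from the Golgi were examined in IMR90 cells, an established line of human fetal lung fibroblasts. The set holds 53 genes, picked by name for their known roles: 7 of the signal recognition particle and its receptor, 6 of the Sec61 channel and its partners, 4 of the translocon-associated protein (TRAP) complex, 5 of signal peptidase, 7 of oligosaccharyltransferase, 7 cargo and retrieval receptors, 10 of the COPII coat and 7 of the COPI coat. All 53 were found by symbol among the 60534 Ensembl gene IDs that every library lists, and all 53 passed the filter on low counts. They were tested beside all other protein-coding genes, 13291 in RNA-seq and 11764 in Ribo-seq.

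RNA-seq and Ribo-seq (sequencing of the mRNA pieces shielded by ribosomes, here called footprints) came from the same kind of lysate in 5 states of IMR90 cells, 27 libraries in all, labelled wild type (no genotype is labelled for the thapsigargin libraries). Cycling cells were taken at 40 to 60% confluency (2 RNA-seq and 3 Ribo-seq libraries). Quiescent cells had stopped dividing by contact inhibition, irradiated cells were senescent 10 days after 15 Gy of ionizing radiation, and etoposide cells were senescent after 50 µM of this topoisomerase II poison given 3 times in 10 days, with 3 libraries of each type per state. Thapsigargin cells were cycling cells given 25 nM of this blocker of the ER calcium pump for 3 h (2 libraries of each type). Those 4 libraries are told apart as RNA-seq and Ribo-seq by their titles alone, since another label calls all 4 ribosome-protected fragments, and every thapsigargin value rests on the titles. All libraries came from 1 cell line, with no donor to compare, and the labels do not say whether replicates were separate cultures, so p-values measure the spread between these libraries only.

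Gene counts per library ran from 20635503 to 57119841 in RNA-seq and from 1936976 to 19996104 in Ribo-seq, lowest for thapsigargin footprints. Levels are in CPM, counts per 1000000 counts after TMM scaling. Changes are log2 fold changes from edgeR's quasi-likelihood test, with Benjamini-Hochberg adjusted p over all genes tested. Standard errors (SE) were derived as the absolute log2 fold change divided by the square root of the test's F value. A gene is called at an adjusted p under 0.05, and the verbs rose and fell are kept for called changes. The fibroblast markers COL1A1, VIM and THY1 were present in every library, at no less than 495, 3711 and 186 CPM in RNA-seq, whereas the epithelial markers EPCAM and CDH1 and the leukocyte marker PTPRC stayed under 1 CPM there. The keratins KRT18 and KRT8 were present, at 49.9 to 92.4 and 9.07 to 23.0 CPM, and KRT19 varied most, from 1.99 CPM in an etoposide library to 96.3 CPM in a thapsigargin library in RNA-seq and from 5.43 to 152 CPM in Ribo-seq in the same states. In bulk libraries, fewer cells of a kind and less RNA per cell cannot be told apart.

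Some libraries stood apart. Quiescent replicate 1 was the lowest quiescent library for 23 of 29 genes of 5 membrane complexes (Sec61 and partners, TRAP, signal peptidase, oligosaccharyltransferase and the receptors) in RNA-seq and for 26 of 29 in Ribo-seq, and COL1A1 footprints were also lowest there, at 3756 CPM against 8954 and 12029.6 CPM in the others. In Ribo-seq the 9 fibroblast markers summed to 35579 to 37272 CPM when cycling, 17390.0 to 37072 when quiescent, 22444 to 24741 after irradiation, 29730.0 to 31936 after etoposide and 12430.0 to 12966 after thapsigargin. In RNA-seq the sums were 10039 to 14401 CPM when cycling and between 8954 and 12084 in the other states. Their part in the results was not tested. Unmapped reads made up 1.35 to 1.40% of thapsigargin RNA-seq reads against 27.8 to 40.6% in RNA-seq of the other states. Multimapping reads made up 65.2 to 66.9% of thapsigargin Ribo-seq reads against 19.8 to 31.9% elsewhere in Ribo-seq. The deposited gene lists differ as well: all RNA-seq and the thapsigargin Ribo-seq files list 62703 IDs and all other Ribo-seq files 60664. Thapsigargin treatment and these library properties cannot be told apart by the design. The arrested states share their list with cycling cells within each assay.

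Proteins bound for secretion or for a membrane carry a signal sequence that the signal recognition particle reads as it leaves the ribosome. The particle docks at its receptor on the ER and the ribosome is passed to the Sec61 channel, through which the chain is threaded while signal peptidase trims it and oligosaccharyltransferase adds glycans. Folded cargo leaves in COPII-coated vesicles, and COPI-coated vesicles return escaped ER residents and the receptors themselves from the Golgi. Fibroblasts depend on this route for collagen and other matrix proteins, and many of its genes are textbook targets of the unfolded protein response, in which XBP1 and ATF6 bind motifs such as TGACGTGG.

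The start regions of the genes were searched for such motifs because genes of 1 complex often moved together and the motifs belong to a response that thapsigargin triggers. RefSeq windows of 300 bases, from 250 before to 50 after a start site (GRCh38.p14), were at hand for 46 of the 53 genes (58 windows). The motif known as UPRE, TGACGTGG on either strand, lay in windows of 9 of the 46 genes (19.6%), against 1.05% of 15843 protein-coding genes. Those 9 genes follow, in stretches of 28 bases, 5′ to 3′ along the gene's own strand, with the motif or its reverse complement CCACGTCA in capitals. COPB2 holds it at 2 places.
COPA: agagggtcgcTGACGTGGaggcgtccga
COPB1: ccacccccttCCACGTCAgccaaggact
COPB2: ctcagcggcaCCACGTCAcggcccttag
COPB2: cccggaagttCCACGTCAgtcagtctga
KDELR3: gccgccctggCCACGTCAccgcccggcc
SEC23A: cccctcctctTGACGTGGcagaggcggc
SEC24A: tgagagtcggTGACGTGGcggcgaggcc
SEC62: cctcctcgctCCACGTCAgagggaaccg
SSR3: ctgataacagCCACGTCAgcaaggaaac
SSR4: cagggaggggCCACGTCAgtgctgccag

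The matches lie at chr1:160343238-160343245 (COPA, minus strand), chr11:14499852-14499859 (COPB1, minus), chr3:139389836-139389843 and chr3:139389643-139389650 (COPB2, minus), chr22:38468050-38468057 (KDELR3, plus), chr14:39103232-39103239 (SEC23A, minus), chr5:134648606-134648613 (SEC24A, plus), chr3:169966790-169966797 (SEC62, plus), chr3:156554159-156554166 (SSR3, minus) and chrX:153794539-153794546 (SSR4, plus). The first base of a match was at most 196 bases before the start site of its window, and in COPA it lay 5 bases after it. The SSR3, SSR4 and SEC24A matches lie before a start site inside the gene and not before its outermost end. The annotated spans of these 3 genes are chr3:156539553-156555117, chrX:153794159-153798499 and chr5:134648382-134727909. Counted from a second COPB2 start site, the COPB2 matches lay 163 bases before and 30 bases after it. By role, 3 of the 7 COPI genes, 2 of 4 TRAP genes, 2 of 9 COPII genes, 1 of 5 Sec61 genes and 1 of 6 cargo receptor genes with a window held the motif, and none of the signal recognition particle, signal peptidase or oligosaccharyltransferase genes did. The shorter CCACG, which UPRE contains, was in 84.8% of the 46 genes and in 50.2% of all. The cyclic AMP response core TGACGT, also a part of UPRE, was in 37.0% and 11.7%. The longer ER stress elements known as ERSE and ERSE-II, which end in CCACG, were in none of the 46 genes and in 0.133% and 0.0947% of all genes. All motifs were searched on both strands. A match in these letters is a description and not a shown binding site.

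The mRNAs of the machinery built into the ER membrane were mostly lower in quiescent and in irradiated cells than in cycling cells, while those of the coats lay near or above their cycling level. Etoposide cells had 4 falls in RNA-seq. Summed over the 53 genes, the share of protein-coding counts in Ribo-seq was 1.82, 1.90 and 1.84% when cycling, 1.60, 1.64 and 1.57% when quiescent, 1.53, 1.54 and 1.52% after irradiation, 1.82, 1.92 and 1.86% after etoposide and 2.02 and 2.05% after thapsigargin. Quiescent and irradiated libraries lay below all others. In quiescent cells 24 of the 53 genes were called in RNA-seq (2 higher, 22 lower), where 15.6% of all genes tested were (5.18% higher, 10.4% lower), and the median change was -0.42 against 0.02 over all genes. In irradiated cells 28 were called (5 higher, 23 lower), against 34.9% of all genes (16.2% higher, 18.8% lower), with a median of -0.29 against 0.03. In etoposide cells 14 were called (10 higher, 4 lower), against 34.5% of all genes (16.8% higher, 17.8% lower), with a median of 0.10 against 0.00. Without cycling replicate 1 or 2 the etoposide count was 4 or 5, and in a fit of only the groups compared it was 22 (15 higher, 7 lower), where the quiescent count was 14, all lower.

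Footprints shifted the same way, with lower medians. In quiescent cells 36 of the 53 genes were called in Ribo-seq (7 higher, 29 lower), against 21.7% of all genes (7.09% higher, 14.6% lower), with a median of -0.73 against 0.02 over all genes. Irradiated cells also had 36 called (7 higher, 29 lower), against 39.8% of all genes (17.2% higher, 22.6% lower), with a median of -0.69 against -0.01. Etoposide cells had 17 called (12 higher, 5 lower), against 34% of all genes (16.4% higher, 17.6% lower), with a median of 0.00 against -0.01. In a fit of only the groups compared the etoposide count was 31 (18 higher, 13 lower) and the quiescent one 21 (3 higher, 18 lower). Of the genes called lower in RNA-seq, 22 were also called lower in Ribo-seq in quiescent cells and 22 in irradiated cells, and no gene was called in opposite directions by the assays in any comparison.

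**Figure D1:**
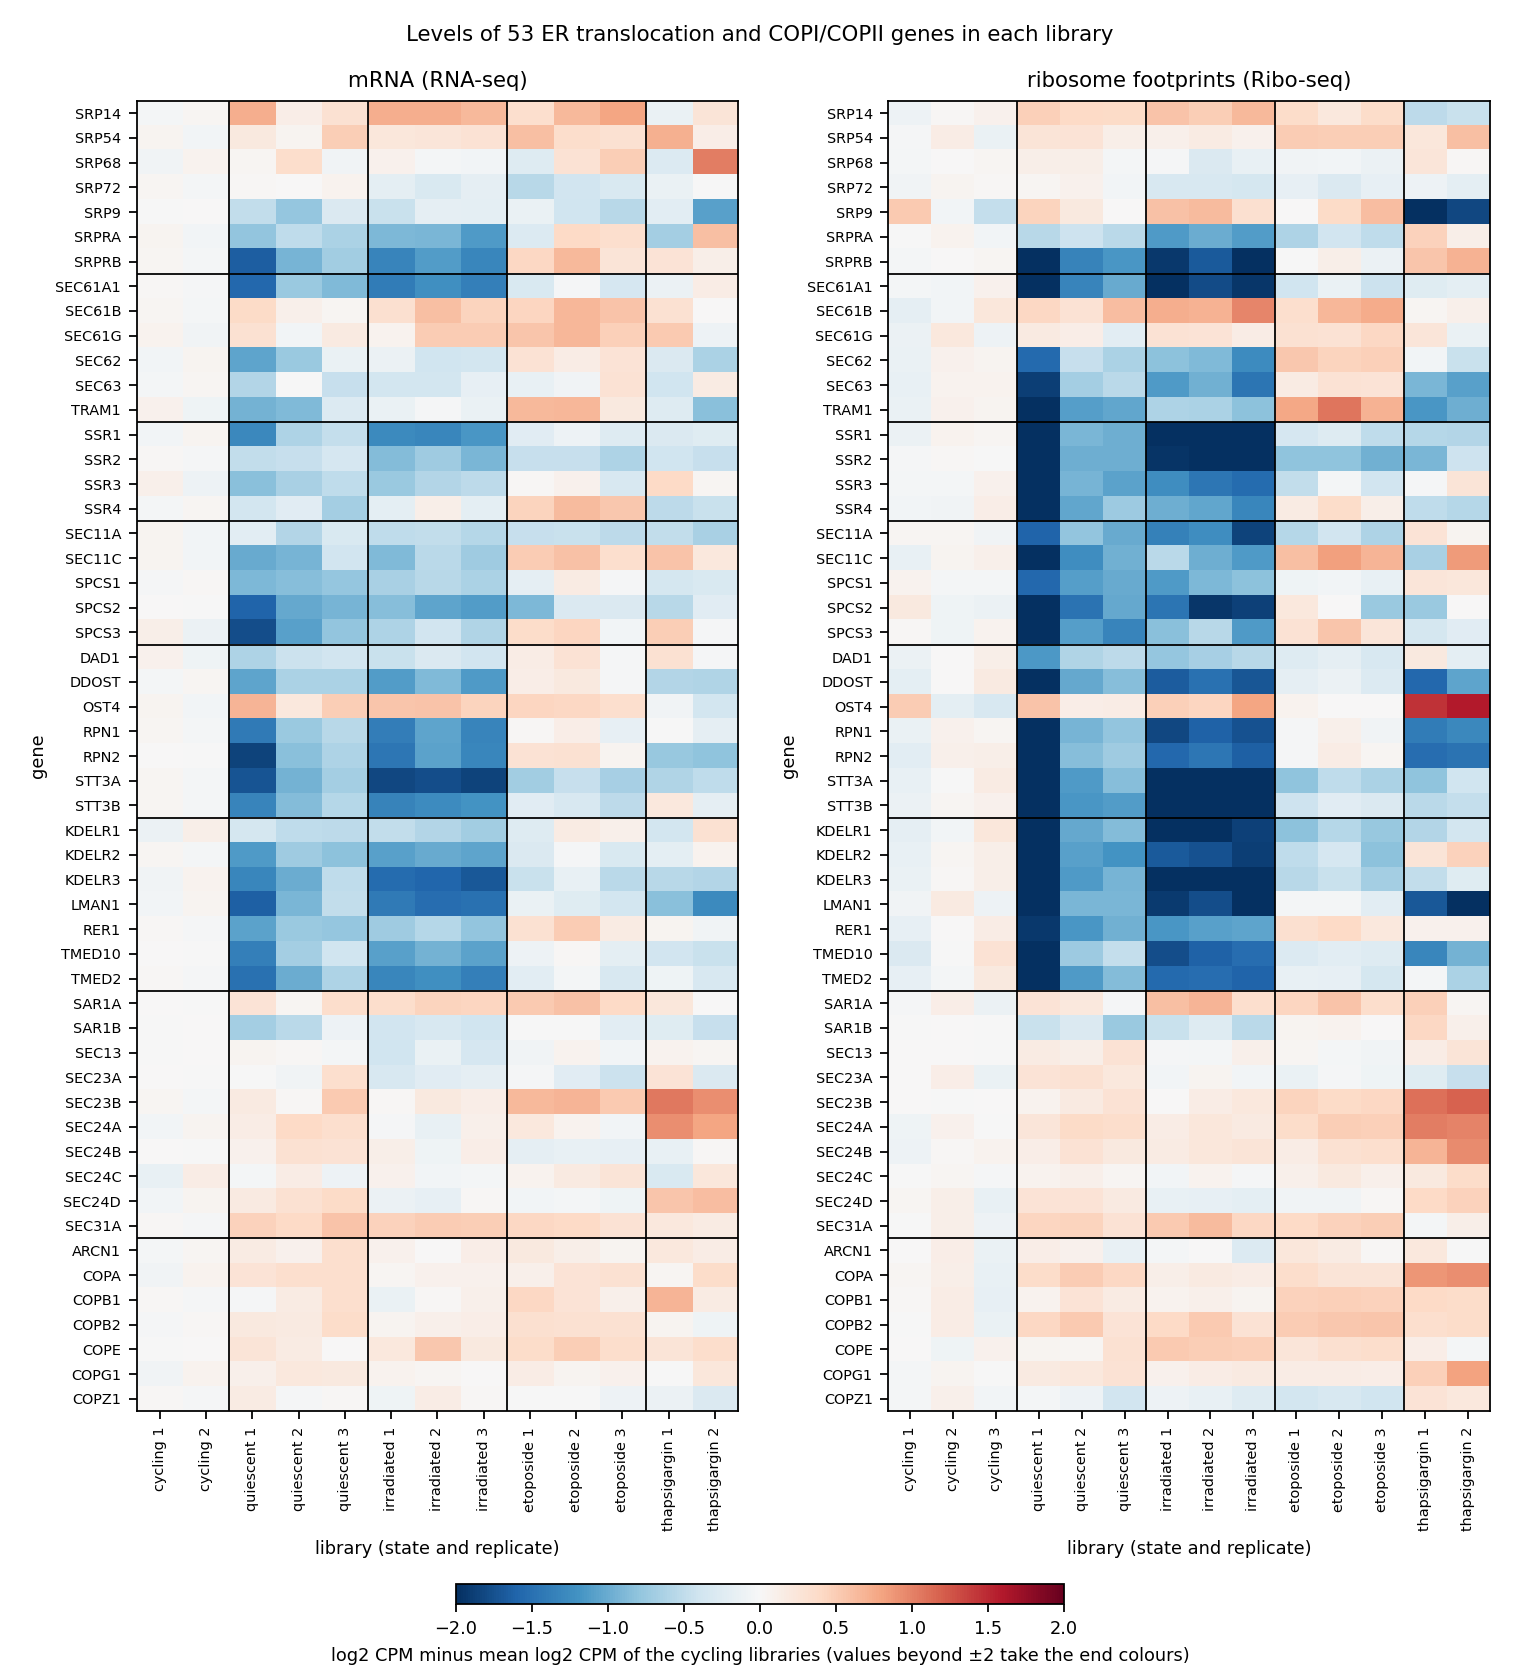
Each cell is the log2 CPM of a gene (rows, grouped by complex with black lines between groups) in a library (columns, grouped by state), minus the mean log2 CPM of the cycling libraries of the same assay, with RNA-seq at left and Ribo-seq at right. Colours stop at 2 in either direction. Blue fills most rows from the Sec61 genes to the cargo receptors in the quiescent and irradiated columns, with SEC61B, SEC61G and OST4 among the exceptions, and paler colours fill most rows of the signal recognition particle and the coats (medians 0.17 and 0.02 in quiescent and irradiated RNA-seq), where SRPRA and SRPRB are darker.

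The genes were then pooled by complex, a grouping made after the values were seen. Of the 29 genes of the 5 membrane complexes, 21 fell and 1 rose in quiescent RNA-seq (median -0.76), and 26 fell and 1 rose in quiescent Ribo-seq (median -1.26). In irradiated cells 21 fell and 2 rose in RNA-seq (median -0.70), and 25 fell and 2 rose in Ribo-seq (median -1.55). In etoposide cells 3 fell and 4 rose in RNA-seq (median 0.00), and 3 fell and 2 rose in Ribo-seq (median -0.12). Over all genes 10.4, 18.8 and 17.8% fell in quiescent, irradiated and etoposide RNA-seq, and 5.18, 16.2 and 16.8% rose. In Ribo-seq 14.6, 22.6 and 17.6% fell and 7.09, 17.2 and 16.4% rose. The etoposide shares of the membrane genes lay under these. The 24 genes of the signal recognition particle with its receptor and of the 2 coats had medians of 0.17, 0.02 and 0.17 in RNA-seq and 0.18, 0.09 and 0.20 in Ribo-seq for quiescent, irradiated and etoposide cells.

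Without quiescent replicate 1, 19 of the 29 membrane genes fell in RNA-seq (median -0.63) and 26 in Ribo-seq (median -0.95). The quiescent RNA-seq count rested more on the 2 cycling libraries: of the 53 genes, 10 were called without cycling replicate 1 and 12 without cycling replicate 2, in place of 24.

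**Figure D2:**
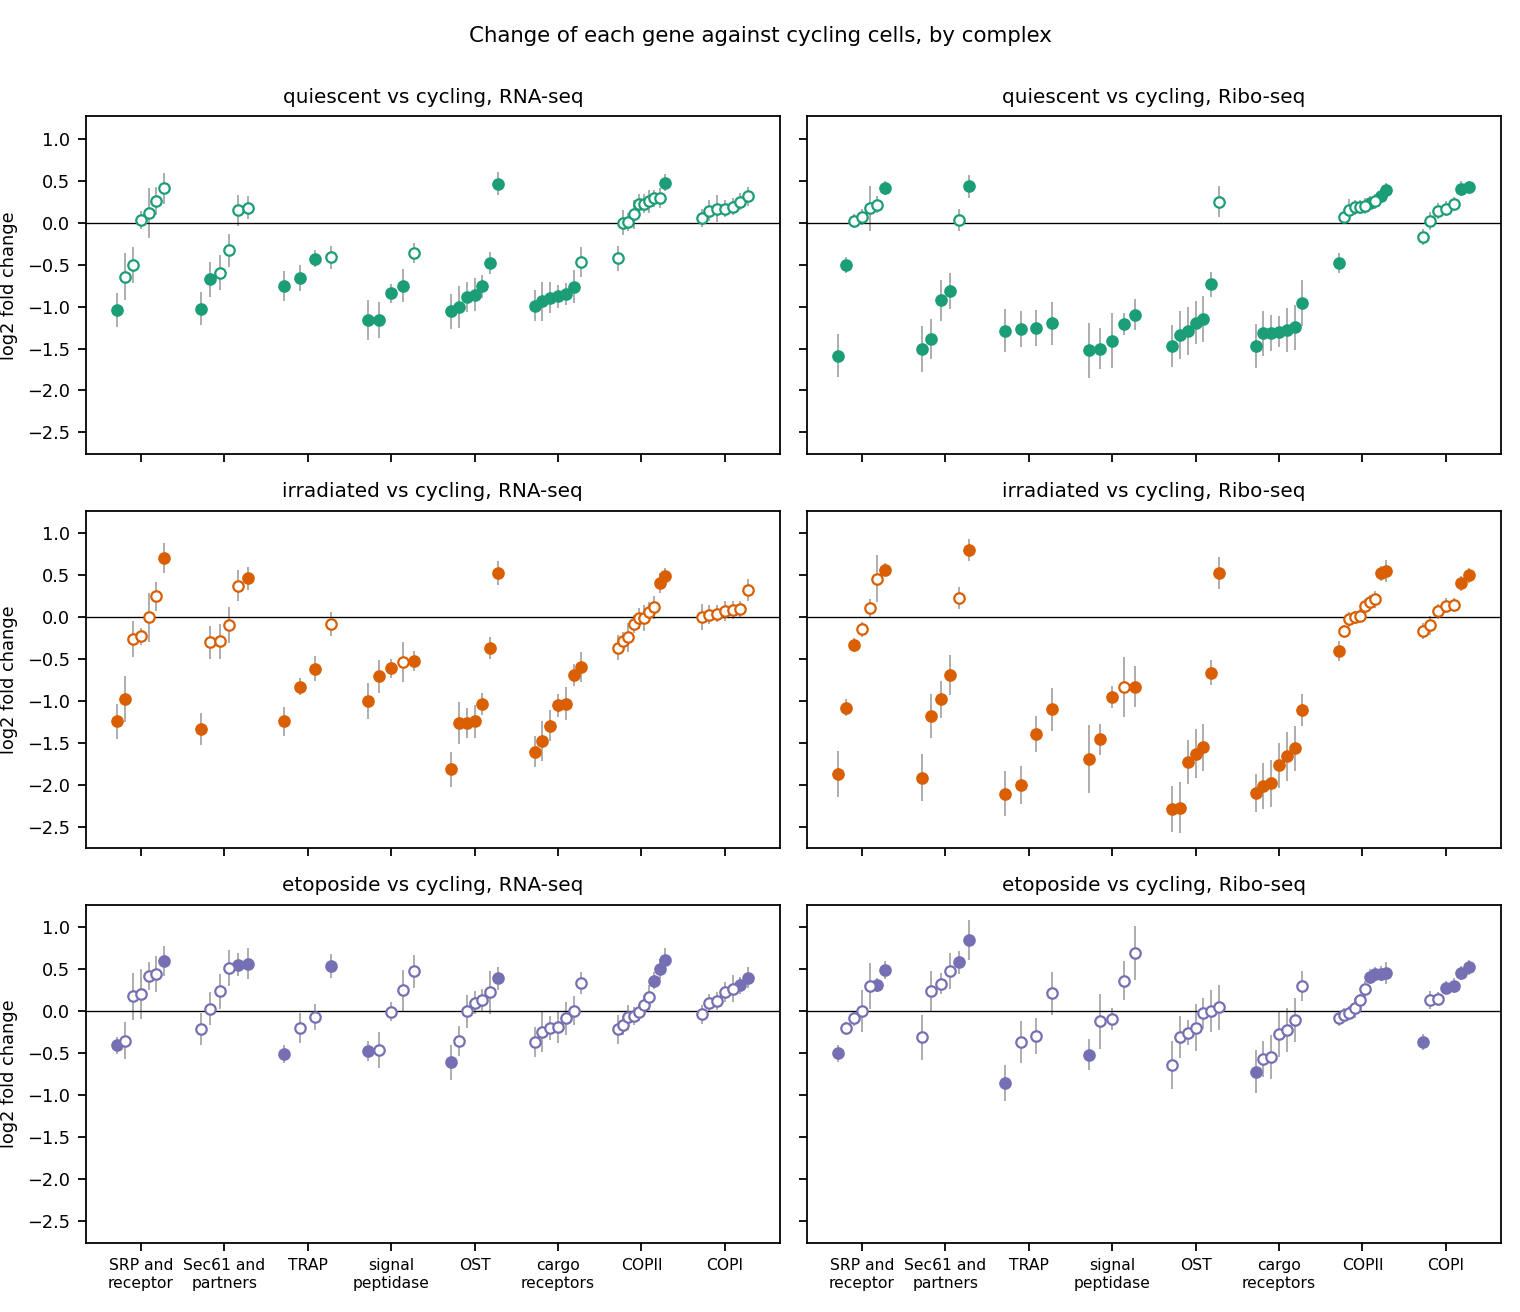
Points are the log2 fold changes of single genes against cycling cells with bars of 1 SE, by complex (x axis), for quiescent, irradiated and etoposide cells (rows) in RNA-seq (left) and Ribo-seq (right). Filled points are called at an adjusted p under 0.05 and open points are not. The 7 cargo and retrieval receptors all lie below 0 in both assays in quiescent and irradiated cells, and the COPI genes lie close to 0.

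Of the particle that reads signal sequences few subunits fell, whereas both subunits of its receptor fell in irradiated cells. SRP54, the subunit that binds the signal sequence, was at 0.26 in quiescent and 0.25 in irradiated RNA-seq, and SRP68 was at 0.12 and 0.00, none of them called. SRP72 footprints fell in irradiated cells by 0.33 on the log2 scale. SRP14, a subunit of the domain that pauses translation, rose in irradiated cells by 0.70 (SE 0.18, adjusted p = 0.00866) in RNA-seq and 0.57 (SE 0.08, adjusted p = 0.000114) in Ribo-seq, and its quiescent footprints rose by 0.42 (SE 0.08, adjusted p = 0.00284). In etoposide cells SRP14 mRNA rose by 0.60 (SE 0.18, adjusted p = 0.02) and SRP54 footprints by 0.49 (SE 0.10, adjusted p = 0.00234), while SRP72 mRNA fell, at -0.41 (SE 0.10, adjusted p = 0.00822). The SRP14 mRNA call in etoposide cells was lost without either cycling library or etoposide replicate 2 or 3 (adjusted p up to 0.138). Without cycling RNA-seq replicate 1 the irradiated SRP14 and etoposide SRP72 mRNA calls were lost too (adjusted p = 0.0806 and 0.0792). SRP9, the partner of SRP14, was at -0.51 and -0.27 in quiescent and irradiated RNA-seq, not called. It had few footprints for its mRNA and has near-identical copies elsewhere in the genome, so its counts are uncertain.

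SRPRB (ENSG00000144867, chromosome 3, 133784023 to 133828574 on GRCh38), the receptor subunit anchored in the ER membrane, was among the genes that fell most. Its mRNA was at 92.8 and 88.8 CPM when cycling, 29, 47.8 and 55.9 when quiescent, 36.4, 41.6 and 36.9 after irradiation, 120.5, 141 and 109 after etoposide and 109.5 and 99 after thapsigargin. All quiescent and irradiated libraries lay below all cycling, etoposide and thapsigargin libraries. The log2 fold change was -1.04 (SE 0.21, adjusted p = 0.00457) in quiescent RNA-seq and -1.58 (SE 0.26, adjusted p = 0.00121) in quiescent Ribo-seq. Without quiescent replicate 1 these were -0.81 and -1.25. SRPRA, the receptor subunit that engages the particle, fell in irradiated cells by 0.98 in RNA-seq and 1.08 in Ribo-seq on the log2 scale, and its etoposide footprints changed by -0.50 (SE 0.10, adjusted p = 0.00171).

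Of the channel, the large subunit fell and the small ones were at or above their cycling level. SEC61A1 (ENSG00000058262, chromosome 3, 128051641 to 128071683) forms the pore that the growing chain passes through. SEC61A1 mRNA was at 662 and 639.8 CPM when cycling, 218, 388 and 355 when quiescent, 247, 278 and 251 after irradiation, 528, 638 and 518 after etoposide and 599 and 720.3 after thapsigargin. The quiescent and irradiated libraries did not overlap the cycling ones, and the etoposide libraries reached just under them. Its change was -1.02 (SE 0.19, adjusted p = 0.00355) in quiescent and -1.33 (SE 0.19, adjusted p = 0.000141) in irradiated RNA-seq, and -1.50 (SE 0.27, adjusted p = 0.00211) in quiescent Ribo-seq.

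SEC61B (ENSG00000106803, chromosome 9, 99222282 to 99230615), a small tail-anchored subunit, was at 116 and 111 CPM when cycling, 148, 121 and 117 when quiescent, 141, 172 and 155 after irradiation and 153, 179.7 and 167 after etoposide in RNA-seq. It was never below the cycling range. SEC61B rose by 0.46 (SE 0.14, adjusted p = 0.0198) in irradiated and 0.56 (SE 0.14, adjusted p = 0.00754) in etoposide RNA-seq. The irradiated call was lost without either cycling library or irradiated replicate 2 (adjusted p up to 0.123), and the etoposide call without cycling replicate 2 (adjusted p = 0.0689). In Ribo-seq it rose in all 3 arrested states, by 0.44 (SE 0.13, adjusted p = 0.0328), 0.80 (SE 0.14, adjusted p = 0.000414) and 0.58 (SE 0.13, adjusted p = 0.00427) in quiescent, irradiated and etoposide cells. The quiescent Ribo-seq call was lost in a fit of these groups alone and without either of 2 cycling libraries or quiescent replicate 3 (adjusted p up to 0.132). SEC61G, the other small subunit, was called against cycling cells in etoposide RNA-seq alone, at 0.57 (SE 0.18, adjusted p = 0.0292), a call lost without either cycling library or etoposide replicate 2 (adjusted p up to 0.173).

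The log2 ratio of SEC61B to SEC61A1 counts within a library was set side by side across states. In RNA-seq it was -2.51 and -2.53 when cycling, -0.56, -1.68 and -1.60 when quiescent, -0.81, -0.69 and -0.70 after irradiation, -1.79, -1.83 and -1.63 after etoposide and -2.11 and -2.66 after thapsigargin. Gene lengths are not accounted for, so the ratio is no measure of which gene is more abundant. It was higher in every library of the 3 arrested states than in the cycling ones, and quiescent replicates 2 and 3 lay near the etoposide libraries while quiescent replicate 1 lay above the irradiated range.

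**Figure D3:**
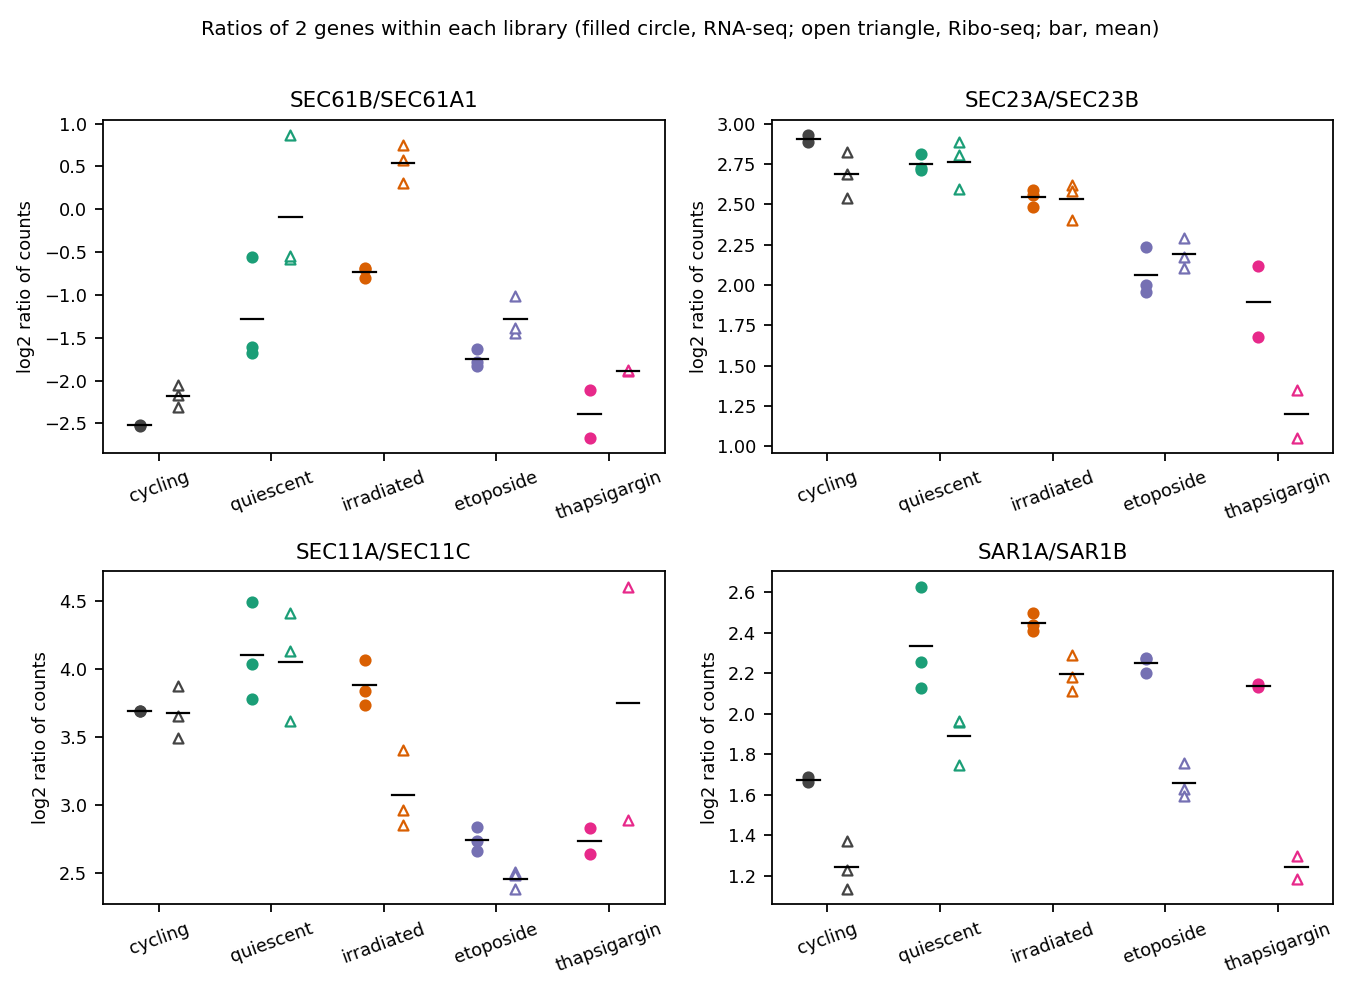
Each point is the log2 ratio of the counts of 2 genes within a library, by state, with filled circles for RNA-seq, open triangles for Ribo-seq and bars for group means. SEC61B/SEC61A1 is lowest in cycling and thapsigargin cells, SEC23A/SEC23B has its lowest means in thapsigargin cells (1.90 and 1.20), SEC11A/SEC11C has its lowest RNA-seq means in etoposide and thapsigargin cells, and SAR1A/SAR1B in RNA-seq is lowest in cycling cells.

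SEC62 and SEC63, which help proteins enter after or during their synthesis, were not called in RNA-seq (SEC62 -0.59 and -0.29, SEC63 -0.33 and -0.30 in quiescent and irradiated cells). Their footprints fell in both states, SEC62 by 0.81 and 0.98 and SEC63 by 0.93 and 1.18 on the log2 scale. No difference between the assays was called for them. TRAM1, which lies beside the channel and meets signal sequences, had 308, 357 and 349 CPM of footprints when cycling, 68.4, 156 and 164 when quiescent, 219, 217 and 191 after irradiation, 577, 706 and 547 after etoposide and 151 and 172 after thapsigargin. The etoposide libraries were all above and the other 3 states all below the cycling range. TRAM1 footprints rose by 0.85 (SE 0.24, adjusted p = 0.0129) in etoposide cells, a call lost without cycling Ribo-seq replicate 1 (adjusted p = 0.0517), and fell by 0.69 in irradiated and 1.38 in quiescent cells on the log2 scale. TRAM1 mRNA fell in quiescent cells, at -0.67 (SE 0.21, adjusted p = 0.0472), and was at -0.10 in irradiated and 0.52 in etoposide cells, not called.

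TRAP, which sits beside the channel and aids the entry of some substrates, fell as a whole in footprints: all 4 of its genes were called lower in both quiescent and irradiated Ribo-seq (medians -1.26 and -1.70). In RNA-seq 3 of 4 fell in each state. SSR1 footprints were at 361, 408 and 402 CPM when cycling, 77, 206 and 197 when quiescent, 95.2, 96.7 and 79.9 after irradiation and 309, 327 and 273 after etoposide. The irradiated libraries were lowest with quiescent replicate 1, and the log2 fold change in irradiated cells was -2.11 (SE 0.27, adjusted p = 4.79e-05). SSR2 was the TRAP gene that also fell in etoposide cells, at -0.51 (SE 0.10, adjusted p = 0.00204) in RNA-seq and -0.86 (SE 0.22, adjusted p = 0.00786) in Ribo-seq. SSR4 rose there in RNA-seq by 0.54 (SE 0.15, adjusted p = 0.0112), a call lost without either cycling RNA-seq library (adjusted p up to 0.103), and its footprints were at 0.21. SSR3, one of the genes with the UPRE letters, was at -0.66 and -0.61 in quiescent and irradiated RNA-seq and -0.06 in etoposide cells, with the first 2 called.

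Signal peptidase had its lowest medians in quiescent cells. All 5 of its genes fell in quiescent Ribo-seq (median -1.41) and 4 in quiescent RNA-seq (median -0.84), against 4 in each assay in irradiated cells (medians -0.95 and -0.61). Their summed share of protein-coding counts overlapped between these states. In Ribo-seq it was 0.0197, 0.0321 and 0.0290% when quiescent against 0.0320, 0.0357 and 0.0281% after irradiation. In RNA-seq it was 0.0327, 0.0348 and 0.0415% against 0.0407, 0.0435 and 0.0404%. Quiescent replicate 1 was lowest in both assays. SPCS3, a subunit needed for activity, was at 323 and 273 CPM when cycling, 86.8, 140.2 and 172 when quiescent, 193, 229 and 196 after irradiation, 381, 399 and 284 after etoposide and 417 and 293 after thapsigargin in RNA-seq. The quiescent libraries were the lowest of all. Its quiescent change was -1.16 (SE 0.24, adjusted p = 0.0055) in RNA-seq and -1.50 (SE 0.24, adjusted p = 0.00105) in Ribo-seq, and without quiescent replicate 1 it was -0.93 and -1.21. The RNA-seq call was lost without cycling RNA-seq replicate 1 (adjusted p = 0.0662).

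SPCS2 changed by -1.16 (SE 0.22, adjusted p = 0.00362) in quiescent RNA-seq and -1.52 (SE 0.33, adjusted p = 0.00513) in quiescent Ribo-seq, but it had under 9 CPM of footprints in every library and near-identical copies exist, so its counts are uncertain. SPCS1, a small accessory subunit, was at -0.84 and -0.61 in quiescent and irradiated RNA-seq, both called. SEC11A and SEC11C are the catalytic subunits. SEC11A fell in etoposide cells, at -0.47 (SE 0.12, adjusted p = 0.00655) in RNA-seq and -0.52 (SE 0.18, adjusted p = 0.0417) in Ribo-seq, and SEC11C was at 0.48 and 0.70, not called; the difference between them was not tested. The SEC11A calls in etoposide cells were lost without cycling RNA-seq replicate 1 (adjusted p = 0.0695) and, in Ribo-seq, without any of 5 of the 6 libraries compared (adjusted p up to 0.129).

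Oligosaccharyltransferase, which hands a preformed glycan to the growing chain, had its lowest medians in irradiated cells. Its 7 genes had a median of -1.24 in irradiated RNA-seq and -1.63 in Ribo-seq, and 6 fell in each. STT3A (ENSG00000134910, chromosome 11, 125591769 to 125623091) is the catalytic subunit that works beside the channel. STT3A mRNA was at 247 and 235 CPM when cycling, 73, 125 and 150.0 when quiescent, 68.4, 70.3 and 67 after irradiation, 148, 175 and 151 after etoposide and 158 and 169.6 after thapsigargin. Cycling cells were above every other state, and irradiated cells were lowest. The change was -1.81 (SE 0.21, adjusted p = 2.20e-05) in irradiated, -1.05 (SE 0.21, adjusted p = 0.00441) in quiescent and -0.61 (SE 0.21, adjusted p = 0.0372) in etoposide RNA-seq. The etoposide call was lost when any 1 of the 5 libraries compared was left out (adjusted p up to 0.160).

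STT3B, the catalytic subunit that can act after synthesis, had 174, 193 and 199 CPM of footprints when cycling, 32.8, 84.3 and 87.1 when quiescent, 40.6, 38.5 and 36.5 after irradiation, 142, 161 and 155 after etoposide and 129 and 135 after thapsigargin. Every irradiated library was under 41 CPM, and only quiescent replicate 1 was lower. Irradiated footprints fell, at -2.29 (SE 0.27, adjusted p = 2.80e-05) for STT3B and -2.27 (SE 0.30, adjusted p = 6.78e-05) for STT3A. The scaffold subunits RPN1, RPN2 and DDOST were at -1.24, -1.27 and -1.04 in irradiated RNA-seq and at 0.00, 0.23 and 0.10 in etoposide RNA-seq, with only the irradiated values called. DAD1 fell, at -0.48 in quiescent and -0.37 in irradiated RNA-seq.

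OST4 (ENSG00000228474, chromosome 2, 27070472 to 27071654), a very small subunit, went the other way. It rose by 0.47 (SE 0.14, adjusted p = 0.0359) in quiescent and 0.53 (SE 0.14, adjusted p = 0.00939) in irradiated RNA-seq and by 0.53 (SE 0.19, adjusted p = 0.037) in irradiated Ribo-seq, and its etoposide mRNA rose by 0.39. The quiescent call was lost with unstranded counts, in a fit of the groups compared alone, and without either cycling library or quiescent replicate 1 or 3 (adjusted p up to 0.221). The irradiated Ribo-seq call was lost under 6 of 13 alternatives (adjusted p up to 0.127), and the irradiated RNA-seq call without cycling replicate 2 (adjusted p = 0.0884).

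The receptors that load cargo and fetch it back fell together: all 7 were called lower in irradiated RNA-seq (median -1.05), in irradiated Ribo-seq (median -1.77) and in quiescent Ribo-seq (median -1.30), and 6 in quiescent RNA-seq (median -0.88). In etoposide RNA-seq their values ran from -0.37 (KDELR3) to 0.34 (RER1), without a call, and in etoposide Ribo-seq KDELR1 fell, at -0.72 (SE 0.26, adjusted p = 0.0455). That call was lost under 8 of 13 alternatives (adjusted p up to 0.155). The KDEL receptors return ER residents such as chaperones. KDELR3 (ENSG00000100196, chromosome 22, 38468096 to 38483447) mRNA was at 146 and 159.5 CPM when cycling, 62, 77.1 and 108 when quiescent, 52.4, 50.9 and 47.1 after irradiation, 113, 138 and 105 after etoposide and 104 and 102 after thapsigargin. Irradiated cells lay below every other state, and the change was -1.61 (SE 0.18, adjusted p = 2.12e-05) in RNA-seq and -2.10 (SE 0.23, adjusted p = 1.19e-05) in Ribo-seq. KDELR1 footprints fell in irradiated cells, at -2.01 (SE 0.27, adjusted p = 7.53e-05), and KDELR2 footprints fell in quiescent cells, at -1.47 (SE 0.26, adjusted p = 0.00186).

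LMAN1, the lectin that carries glycoproteins such as clotting factors out of the ER, was at 274 and 296 CPM when cycling, 91.6, 152 and 203 when quiescent, 107, 99.2 and 101 after irradiation, 259.5, 239.5 and 222 after etoposide and 159.6 and 117 after thapsigargin in RNA-seq. Etoposide cells came nearest to the cycling level. LMAN1 changed by -1.48 (SE 0.23, adjusted p = 0.000298) in irradiated RNA-seq. TMED2 and TMED10, p24 proteins that cycle between the ER and Golgi, were at -0.99 and -0.76 in quiescent RNA-seq, and TMED2 fell in irradiated RNA-seq, at -1.30 (SE 0.19, adjusted p = 0.00014). RER1, which retrieves unassembled membrane proteins, was at -0.85, -0.69 and 0.34 in quiescent, irradiated and etoposide RNA-seq, with the first 2 called.

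The COPII coat buds vesicles from the ER. Of its 10 genes 1, 2 and 3 rose in quiescent, irradiated and etoposide RNA-seq, and the lowest value there was -0.42 (SAR1B in quiescent cells, not called). Its footprints rose for 3, 2 and 4 genes, and SAR1B footprints fell in quiescent and irradiated cells by 0.48 and 0.41 on the log2 scale. Over all genes 5.18, 16.2 and 16.8% rose in quiescent, irradiated and etoposide RNA-seq, and 7.09, 17.2 and 16.4% in Ribo-seq. The COPII share in irradiated cells was near these in both assays. SEC31A, of the outer cage, rose in both assays in all 3 arrested states: by 0.48 (SE 0.10, adjusted p = 0.00563) in quiescent and 0.49 (SE 0.10, adjusted p = 0.00183) in irradiated RNA-seq, and by 0.39 (SE 0.09, adjusted p = 0.00666) and 0.52 (SE 0.09, adjusted p = 0.000393) in Ribo-seq. In etoposide cells SEC31A was at 0.37 in RNA-seq and 0.45 in Ribo-seq. The quiescent RNA-seq call was lost without either cycling library or in a fit of the groups compared alone (adjusted p up to 0.0657). SEC13, its cage partner, was not called in any of these comparisons (RNA-seq 0.01, -0.29 and -0.01 in quiescent, irradiated and etoposide cells).

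The GTPase SAR1A, which starts the coat, rose in irradiated cells by 0.41 (SE 0.12, adjusted p = 0.0166) in RNA-seq and 0.55 (SE 0.13, adjusted p = 0.00432) in Ribo-seq, and in etoposide cells by 0.50 and 0.45. The irradiated RNA-seq call was lost without either cycling library (adjusted p up to 0.0956). The log2 ratio of SAR1A to SAR1B counts in RNA-seq was 1.69 and 1.66 when cycling, 2.63, 2.25 and 2.13 when quiescent, 2.41, 2.44 and 2.50 after irradiation, 2.20, 2.27 and 2.28 after etoposide and 2.13 and 2.15 after thapsigargin. Libraries of all 4 other states were above both cycling libraries. In Ribo-seq the ratio was 1.23, 1.37 and 1.13 when cycling and 1.30 and 1.19 after thapsigargin, within the cycling range, and every arrested library was above these. SEC23B, of the inner coat, rose in etoposide cells by 0.62 (SE 0.14, adjusted p = 0.00379) in RNA-seq, where its paralog SEC23A was at -0.22 and not called. The cargo adaptors SEC24A, SEC24B, SEC24C and SEC24D were not called in RNA-seq in any arrested state against cycling cells, with values from -0.17 (SEC24B in etoposide cells) to 0.30 (SEC24A in quiescent cells).

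The COPI coat had values near 0 in RNA-seq, from 0.06 (COPZ1) to 0.32 (COPA) in quiescent cells and from 0.00 (COPB1) to 0.32 (COPE) in irradiated cells, without a call. COPB2 and COPE rose in etoposide RNA-seq by 0.31 and 0.40. In irradiated Ribo-seq COPB2 rose by 0.40 and COPE by 0.50. In quiescent Ribo-seq COPA and COPB2 rose, by 0.42 (SE 0.08, adjusted p = 0.00242) and 0.41 (SE 0.09, adjusted p = 0.00622), and in etoposide Ribo-seq COPB2 and COPB1 rose, by 0.52 (SE 0.09, adjusted p = 0.000567) and 0.46 (SE 0.09, adjusted p = 0.000944). COPB2 was lost in quiescent cells in a fit of the groups compared alone (adjusted p = 0.0510). COPZ1, the small zeta subunit, was the COPI gene whose footprints fell in etoposide cells, at -0.37 (SE 0.09, adjusted p = 0.00766). COPG1 and ARCN1 were not called in either assay in the 3 arrested states, with RNA-seq values between 0.04 and 0.19.

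The 2 senescent states were compared directly, to ask whether the inducers differ. In RNA-seq 25 of the 53 genes were called and all 25 were lower in irradiated than in etoposide cells (22.6% of all genes were called, 9.68% higher and 12.9% lower). In Ribo-seq 33 were called, 32 lower and 1 higher (21.7% of all genes called, 7.77% higher and 13.9% lower). Of the 29 membrane genes 22 were lower in RNA-seq (median -0.78) and 25 in Ribo-seq (median -1.41). The 24 others had 3 and 7 lower, with medians of -0.09 and -0.12. Irradiated and etoposide library ranges did not overlap, with irradiated cells lower, for 32 of 53 genes in RNA-seq and 38 in Ribo-seq, against 21.8% and 23.8% of all genes.

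By gene, the difference was largest in RNA-seq for SRPRB, at -1.69 (SE 0.19, adjusted p = 0.000109), followed by RPN2 at -1.49 (SE 0.23, adjusted p = 0.000657), RPN1 at -1.24 (SE 0.18, adjusted p = 0.000432), KDELR3 at -1.24 (SE 0.17, adjusted p = 0.000334) and LMAN1 at -1.23 (SE 0.22, adjusted p = 0.00136). RPN1 mRNA showed this by library, at 114, 143 and 119 CPM after irradiation against 301, 323 and 265 CPM after etoposide and 303 and 289.7 CPM when cycling. In Ribo-seq the lowest were STT3B at -1.98 (SE 0.27, adjusted p = 0.000489), LMAN1 at -1.88 (SE 0.28, adjusted p = 0.000754), SRPRB at -1.87 (SE 0.28, adjusted p = 0.00075), SSR1 at -1.74 (SE 0.27, adjusted p = 0.000899) and RPN1 at -1.73 (SE 0.27, adjusted p = 0.000891). The gene with higher irradiated footprints was SRP14, at 0.26 (SE 0.08, adjusted p = 0.038), a call lost under 7 of 13 alternatives (adjusted p up to 0.289).

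The mean of the 2 senescent states was also set against quiescent cells, the other growth-arrested state. In RNA-seq 15 genes were called (10 higher, 5 lower), against 34.2% of all genes (16.6% higher, 17.6% lower). In Ribo-seq 14 were called (9 higher, 5 lower), against 26% of all genes (12.4% higher, 13.6% lower). The share called was thus under the background in RNA-seq and near it in Ribo-seq. The share called higher lay near or somewhat above that of all genes. The mean joins states that differ, so its values need not hold for either inducer. SPCS3 was higher by 1.02 (SE 0.20, adjusted p = 0.00144) in RNA-seq and 1.27 (SE 0.22, adjusted p = 0.000848) in Ribo-seq, TRAM1 by 0.89 (SE 0.17, adjusted p = 0.00165) and 1.46 (SE 0.22, adjusted p = 0.000274), and RER1 by 0.68 (SE 0.11, adjusted p = 0.000338) and 0.90 (SE 0.16, adjusted p = 0.0013). For each of these the etoposide level was above the irradiated one. SEC11C followed, at 0.64 (SE 0.16, adjusted p = 0.00731) and 1.34 (SE 0.31, adjusted p = 0.00569), and SSR4, at 0.64 (SE 0.11, adjusted p = 0.000852) and 0.76 (SE 0.23, adjusted p = 0.0255). The SSR4 footprint call was lost under 3 of 16 alternatives (adjusted p up to 0.0763).

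The share called lower in the senescent mean than in quiescent cells was under that of all genes in both assays. The genes called lower came from several complexes. In RNA-seq these were SEC24D at -0.36 (SE 0.08, adjusted p = 0.00321), SRP72 at -0.35 (SE 0.08, adjusted p = 0.00433), SEC24B at -0.28 (SE 0.09, adjusted p = 0.0228), SEC24A at -0.27 (SE 0.09, adjusted p = 0.0388) and SSR2 at -0.24 (SE 0.08, adjusted p = 0.0324). SEC24A was lost under 10 of 16 alternatives, SSR2 under 8 and SEC24B under 3 (adjusted p up to 0.142). In Ribo-seq they were SEC24D at -0.35 (SE 0.07, adjusted p = 0.00247), SEC23A at -0.31 (SE 0.08, adjusted p = 0.00768), SRP72 at -0.29 (SE 0.07, adjusted p = 0.00769), SRPRA at -0.29 (SE 0.09, adjusted p = 0.0247) and COPA at -0.21 (SE 0.07, adjusted p = 0.0366). COPA was lost under 6 of 16 alternatives and SRPRA under 3 (adjusted p up to 0.140).

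The footprint counts depended on quiescent replicate 1. Without it 18 genes were called in Ribo-seq, 8 higher and 10 lower, with 5 of the 29 membrane genes now called lower, where none had been. The membrane median went from 0.33 to 0.10. The leading genes kept their sign, with TRAM1 footprints at 1.16, SPCS3 at 0.98 and SEC11C at 1.03. Without irradiated Ribo-seq replicate 1 only 8 genes were called.

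Translation efficiency, footprints relative to mRNA, was tested as the interaction of assay and state in 1 model over both assays (11713 genes). No gene of the 53 was called by edgeR's quasi-likelihood test in quiescent, irradiated or etoposide cells against cycling cells, in irradiated against etoposide cells, or in the senescent mean against quiescent cells. Over all genes 1, 6, 8, 0 and 5 were called (0.00854%, 0.0512%, 0.0683%, 0% and 0.0427%, of which for etoposide cells 0.0256% higher and 0.0427% lower, and for the senescent mean 0.00854% higher and 0.0342% lower). At an unadjusted p under 0.05 there were 6, 13, 6, 12 and 1 of the 53 (11.3, 24.5, 11.3, 22.6 and 1.89%), against 405, 782, 448, 768 and 565 of all genes (3.46, 6.68, 3.82, 6.56 and 4.82%). The 29 membrane genes had negative values for 27 in irradiated cells (median -0.47) and 27 in quiescent cells (median -0.32), against 21 in etoposide cells (median -0.13). SSR2 was at -1.05 (SE 0.24, adjusted p = 0.159), KDELR1 at -1.30 (SE 0.33, adjusted p = 0.218) and STT3B at -0.91 (SE 0.32, adjusted p = 0.524) in irradiated cells, named here after their values were seen.

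For irradiated cells the count of 0 depended on the fit. DESeq2 called 2 genes lower in irradiated cells and none in the other 4 comparisons. A fit of only the groups compared called 18 lower in irradiated against cycling cells (6.71% of all genes called) and 12 lower in irradiated against etoposide cells (5.45%), of which 17 and 12 were membrane genes. It called none in the other 3 comparisons. Over all genes DESeq2 called 6 in irradiated against etoposide cells.

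Under thapsigargin, which starts the unfolded protein response, the genes that rose in RNA-seq were coat genes, and in footprints OST4 rose most, followed by coat genes. In RNA-seq 8 of the 53 genes were called (3 higher, 5 lower), against 24.5% of all genes (11.7% higher, 12.8% lower). In Ribo-seq 22 were called (12 higher, 10 lower), against 44.4% of all genes (20% higher, 24.4% lower), so the share called was near or under the background in both. In RNA-seq all 3 rises were among the 24 particle and coat genes, a share near the 11.7% of all genes that rose. The 3 that rose in RNA-seq were all of the inner COPII coat: SEC23B by 1.00 (SE 0.15, adjusted p = 0.000419), SEC24A by 0.86 (SE 0.13, adjusted p = 0.000537) and SEC24D by 0.59 (SE 0.11, adjusted p = 0.00233). SEC23B mRNA was at 67.2 and 64.1 CPM when cycling, 137 and 126 after thapsigargin, 74.7, 66.8 and 94.4 when quiescent, 66.8, 74.9 and 72.2 after irradiation and 103, 105 and 94.1 after etoposide. Both thapsigargin libraries were above all others.

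The mRNAs that fell were LMAN1 at -1.04 (SE 0.26, adjusted p = 0.0113), DDOST at -0.60 (SE 0.15, adjusted p = 0.0113), SEC11A at -0.56 (SE 0.13, adjusted p = 0.00677), SSR4 at -0.48 (SE 0.16, adjusted p = 0.0395) and SSR2 at -0.43 (SE 0.12, adjusted p = 0.0159). Each of these 5 calls was lost under at least 2 of 10 alternatives, with adjusted p up to 0.183 (SSR4). Leaving out cycling replicate 1 or 2 gave 5 or 4 called genes in place of 8.

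In footprints, OST4, SEC23B, SEC24A, COPA and SEC24B rose most, by 1.47 (SE 0.20, adjusted p = 0.000103), 1.14 (SE 0.10, adjusted p = 1.94e-06), 1.01 (SE 0.09, adjusted p = 3.48e-06), 0.90 (SE 0.09, adjusted p = 5.17e-06) and 0.82 (SE 0.11, adjusted p = 7.69e-05). OST4 footprints were at 3110.4 and 3452 CPM after thapsigargin against 1635, 1002 and 924 when cycling. Its mRNA was 277 and 225 against 302 and 279 CPM, and the mRNA difference was not called. Of the 12 genes that rose, 11 belonged to the particle or the coats: 2 of the signal recognition particle and receptor, 5 of COPII and 4 of COPI (COPA, COPB1, COPB2 and COPG1). Those 11 came from 24 particle and coat genes, where 20% of all genes rose. Of the 10 that fell, 7 were among the 29 membrane genes, a share near the 24.4% of all genes that fell.

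The falls in thapsigargin footprints were led by SRP9, LMAN1, RPN2, RPN1 and DDOST, at -2.59 (SE 0.47, adjusted p = 0.000708), -1.85 (SE 0.33, adjusted p = 0.000677), -1.51 (SE 0.33, adjusted p = 0.00249), -1.35 (SE 0.31, adjusted p = 0.0033) and -1.30 (SE 0.34, adjusted p = 0.00742). SRP9 footprints were 40.0, 26.8 and 20.0 CPM when cycling, 37.8, 31.8 and 27.9 when quiescent, 41.6, 43.1 and 34.5 after irradiation, 28, 36.1 and 42.4 after etoposide and 1.63 and 7.83 after thapsigargin. The low thapsigargin values come from the libraries with the largest share of multimapping reads, which are not counted, and the part of mapping in this value was not tested. The DDOST call was lost without thapsigargin Ribo-seq replicate 1 (adjusted p = 0.0842). LMAN1 footprints were 88.8 and 71.5 CPM after thapsigargin against 274, 324 and 267 CPM when cycling, and the ranges did not overlap.

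Translation efficiency was called for 8 genes under thapsigargin (6 higher, 2 lower), against 20.8% of all genes (7.89% higher, 12.9% lower). OST4, SEC24B, SEC11A, COPA and SPCS1 rose, by 1.65 (SE 0.29, adjusted p = 0.00039), 0.85 (SE 0.17, adjusted p = 0.00123), 0.71 (SE 0.24, adjusted p = 0.0388), 0.66 (SE 0.16, adjusted p = 0.00438) and 0.54 (SE 0.18, adjusted p = 0.0363). COPG1 was the other riser, at 0.52. SRP9 fell, at -2.04 (SE 0.57, adjusted p = 0.0135), and RPN1 fell, at -1.28 (SE 0.36, adjusted p = 0.0147). SEC11A and SPCS1 were each lost under 9 of 15 alternatives (adjusted p up to 0.146), SRP9 under 3 and COPA under 1. Leaving out cycling RNA-seq replicate 2 or thapsigargin Ribo-seq replicate 1 gave 5 called genes in place of 8.

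**Figure D4:**
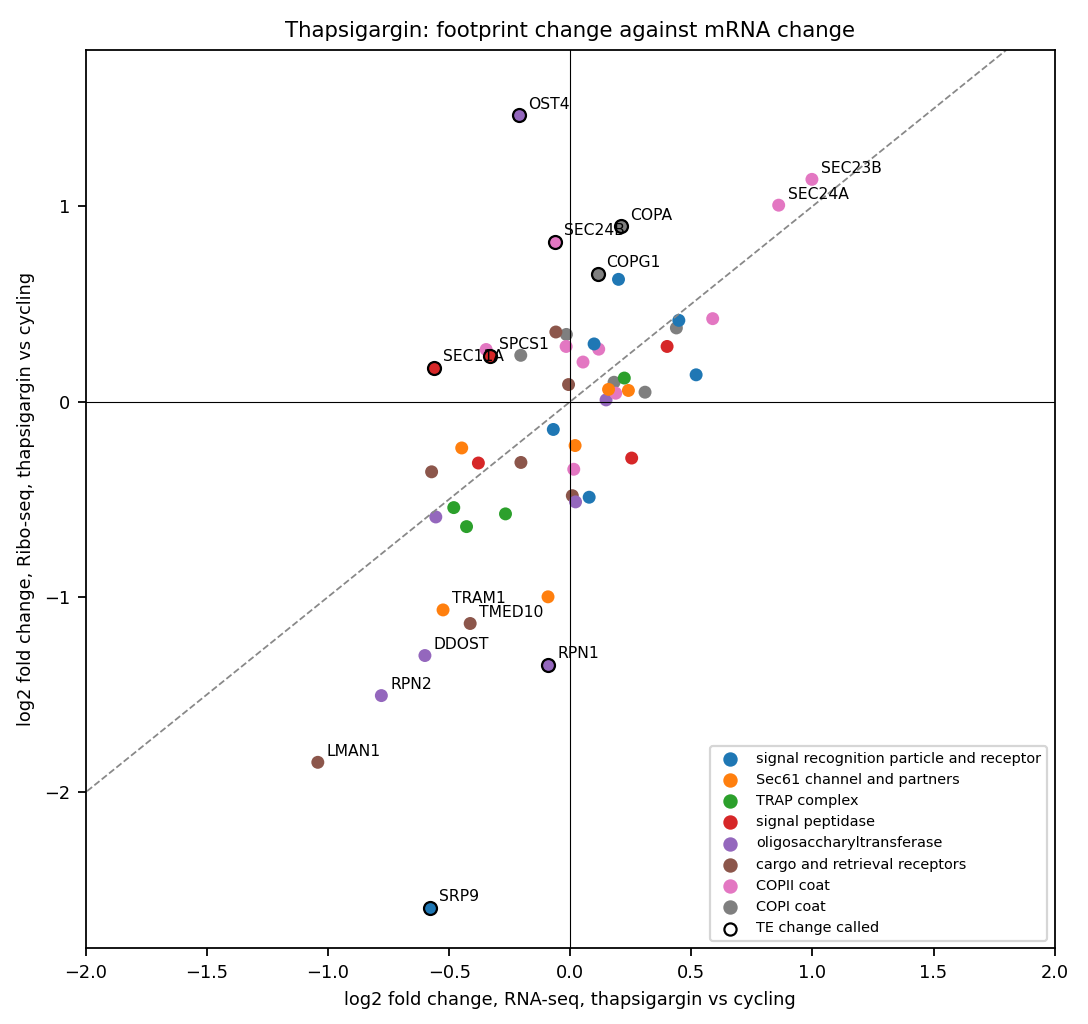
Each point is 1 of the 53 genes, with its log2 fold change under thapsigargin in RNA-seq (x axis) and in Ribo-seq (y axis), coloured by complex; black rings mark called changes of translation efficiency and the dashed line marks equal change. SEC23B and SEC24A lie high on both axes, OST4 rises in footprints alone, and SRP9 (-2.59) lies far under the line.

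Paralogs, and the 2 subunits of the signal recognition particle receptor, were compared by their ratio within each library. The log2 ratio of SEC23A to SEC23B counts in RNA-seq was 2.88 and 2.93 when cycling, 2.71, 2.81 and 2.72 when quiescent, 2.56, 2.49 and 2.59 after irradiation, 2.24, 2.00 and 1.96 after etoposide and 2.11 and 1.68 after thapsigargin. All libraries of the other 4 states lay below the cycling ones. In Ribo-seq it was 2.69, 2.82 and 2.54 when cycling and 2.89, 2.80 and 2.59 when quiescent, and these overlapped. Irradiated Ribo-seq libraries (2.41 to 2.62) overlapped the cycling ones too, while etoposide (2.10 to 2.29) and thapsigargin libraries (1.05 to 1.35) lay below. For STT3A to STT3B it was 0.07 and 0.10 when cycling and -0.39, -0.43 and -0.56 after irradiation in RNA-seq, lower in each of the latter. It ran from -0.72 to -0.23 after thapsigargin, -0.38 to -0.06 after etoposide and -0.32 to 0.01 when quiescent, also below the cycling libraries. In Ribo-seq that ratio was 1.34, 1.34 and 1.46 when cycling and 1.20, 1.61 and 1.39 after irradiation, and the ranges overlapped. For SEC11A to SEC11C it was 3.69 and 3.70 when cycling and 2.73, 2.67 and 2.84 after etoposide in RNA-seq, lower in each etoposide library. After thapsigargin it ran from 2.64 to 2.83. In Ribo-seq the SEC11A to SEC11C ratio ran from 3.50 to 3.88 when cycling and from 2.38 to 2.51 after etoposide. After thapsigargin the 2 Ribo-seq libraries, at 2.89 and 4.61, lay on either side of the cycling ones.

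Among the SEC24 adaptors, the ratio of SEC24A to SEC24B was 0.48 and 0.59 when cycling and 1.62 and 1.30 after thapsigargin in RNA-seq, higher in both of the latter. In Ribo-seq it was 0.37, 0.42 and 0.27 when cycling and 0.68 and 0.41 after thapsigargin, and the ranges overlapped. For SEC24C to SEC24D it was -0.72 and -0.54 when cycling and -1.48 and -1.02 after thapsigargin in RNA-seq. Quiescent libraries, from -1.11 to -0.78, were also below the cycling ones. For SEC24D to SEC24A it was 1.05 and 1.05 when cycling and 0.67 and 0.88 after thapsigargin in RNA-seq. Etoposide (0.79 to 1.02) and irradiated libraries (0.95 to 1.03) were below the cycling ones as well. Among the KDEL receptors, KDELR3 to KDELR1 was 0.09 and -0.01 when cycling and -1.01, -0.95 and -0.97 after irradiation in RNA-seq. KDELR2 to KDELR1 was 1.71 and 1.42 when cycling and 0.97, 1.15 and 1.20 after irradiation. Both RNA-seq ratios were lower in every irradiated library than in any cycling library. KDELR2 to KDELR1 was also below the cycling libraries when quiescent (0.78 to 1.37). KDELR3 to KDELR1 was below them after etoposide (-0.60 to -0.14) and thapsigargin (-0.85 to -0.16), and ran from -0.91 to 0.06 when quiescent. The Ribo-seq ranges overlapped for both: KDELR3 to KDELR1 was -0.21, -0.17 and -0.36 when cycling and -0.31, -0.23 and -0.47 after irradiation, and KDELR2 to KDELR1, with the higher mean after irradiation, 0.87, 0.92 and 0.73 when cycling and 1.21, 1.20 and 0.81 after irradiation. SRPRB to SRPRA was -0.12 and -0.07 when cycling, -0.51, -0.30 and -0.27 after irradiation and 0.85 and -0.57 after thapsigargin in RNA-seq, with the 2 thapsigargin libraries on either side of the cycling and irradiated ones. TMED2 to TMED10 was 0.74 and 0.70 when cycling and 0.50, 0.45 and 0.44 after irradiation in RNA-seq, and 0.67, 0.50 and 0.45 when cycling and 0.77, 0.64 and 0.46 after irradiation in Ribo-seq, where the ranges overlapped. No test was run on these ratios.

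A further 97 genes of the same route, from lists of other translocation genes, glycan genes, ER exit genes, Golgi retrieval genes, tethers and regulators, were counted beside the members. In quiescent cells 35 of the 94 tested in RNA-seq were called (1 higher, 34 lower), in irradiated cells 49 (8 higher, 41 lower) and in etoposide cells 23 (17 higher, 6 lower). These are 37.2, 52.1 and 24.5% of the list, against 15.6, 34.9 and 34.5% of all genes. In Ribo-seq, with 92 tested, 53 were called in quiescent cells (7 higher, 46 lower), 61 in irradiated cells (12 higher, 49 lower) and 21 in etoposide cells (16 higher, 5 lower), which is 57.6, 66.3 and 22.8% against 21.7, 39.8 and 34% of all genes. The difference between irradiated and etoposide cells was called for 45 in RNA-seq (1 higher, 44 lower) and 52 in Ribo-seq (4 higher, 48 lower), against 22.6% and 21.7% of all genes. Thapsigargin gave 11 calls in RNA-seq (6 higher, 5 lower) and 32 in Ribo-seq (19 higher, 13 lower), shares of 11.7 and 34.8% that lie under the 24.5 and 44.4% of all genes.

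By list, in irradiated RNA-seq 13 of 23 other translocation genes fell and 0 rose (median -0.51), 8 of 10 glycan genes fell and 0 rose (median -1.01), and of 21 tethers and SNAREs, which dock and fuse the vesicles, 2 fell and 5 rose (median 0.21), where 18.8% of all genes fell and 16.2% rose. In quiescent RNA-seq the same lists had 12, 5 and 2 that fell and 0, 0 and 1 that rose (medians -0.90, -0.80 and 0.16), where 10.4% of all genes fell and 5.18% rose. The differences between lists were not tested. SURF4, a cargo receptor for soluble proteins, was at -1.49 (SE 0.18, adjusted p = 0.000362) in quiescent and -1.85 (SE 0.18, adjusted p = 4.15e-06) in irradiated RNA-seq, but at -0.19 (SE 0.18, adjusted p = 0.428) in etoposide RNA-seq. Its irradiated footprints were at -2.38 (SE 0.30, adjusted p = 4.14e-05). BCAP31, a chaperone of the ER membrane, was at 1.13 (SE 0.16, adjusted p = 0.000121) in the senescent mean against quiescent cells in RNA-seq and -1.40 (SE 0.17, adjusted p = 0.000188) in irradiated against etoposide cells. XBP1, the regulator named above, was at -1.42 (SE 0.20, adjusted p = 0.000113) in irradiated RNA-seq, and under thapsigargin at 0.75 (SE 0.22, adjusted p = 0.0261) in RNA-seq and 2.61 (SE 0.20, adjusted p = 8.11e-07) in Ribo-seq, with a translation efficiency change of 1.84 (SE 0.29, adjusted p = 0.000155).

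The largest called changes among these 97 genes were mostly falls. In RNA-seq they were PDCD6 (-1.52), SURF4 and LMAN2L (-1.25) in quiescent cells, KRTCAP2 (-2.33), SURF4 and CREB3L2 (-1.66) in irradiated cells, and KRTCAP2 (-1.54), PDCD6 (-1.20) and TRAM2 (-1.15) in etoposide cells. KRTCAP2 is a subunit of the STT3A form of oligosaccharyltransferase, and PDCD6 is a calcium-binding partner of SEC31A. In thapsigargin RNA-seq they were NOMO1 (-1.29), PDCD6 (-1.25) and NAPA (0.77), a factor that recycles SNAREs. In Ribo-seq they were SURF4, TMED5 (-1.64) and NCLN (-1.61) in quiescent cells, TRAM2 (-2.41), SURF4 and MOGS (-2.27), the glucosidase that first trims the glycan, in irradiated cells, and TRAM2 (-1.43), CREB3L2 (-1.23) and NOMO1 (1.09) in etoposide cells. In thapsigargin Ribo-seq they were XBP1, EMC3 (-2.03) and EMC1 (-1.64), the latter 2 of the complex that inserts tail-anchored and multipass proteins.

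Between the inducers the leading genes were SURF4 (-1.66), EMC7 (-1.63) and NOMO1 (-1.58) in RNA-seq and MOGS (-2.33), SURF4 (-1.98) and NOMO1 (-1.93) in Ribo-seq, all lower in irradiated cells. In the senescent mean against quiescent cells they were KRTCAP2 (-1.51), BCAP31 and TMEM147 (0.95) in RNA-seq and EMC7 (1.03), TMED5 (0.94) and BCAP31 (0.92) in Ribo-seq. NOMO1 has near-identical copies in the genome, so its counts are uncertain. For translation efficiency under thapsigargin they were XBP1, EMC3 (-1.53) and ARF3 (1.49).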

How the data were processed

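Gene counts deposited by the authors, per the file headers and values STAR's table of reads per gene, were used as deposited. Per the submitters' processing notes, tools included bcl2fastq, STAR 2.7.10b and DESeq2 1.36.0, with build hg38. The gene annotation release and trimming are not given in the sources used here. The counts hold uniquely mapped reads, so genes with near-identical copies are undercounted. For each assay the column of the strand that held most reads was taken, the reverse one in RNA-seq and the forward one in Ribo-seq (the opposite strand held 3.56 to 10.7%). The files list 62703 or 60664 genes, and the 60534 shared were kept (at least 99.6% of gene counts). Of these, 60461 had a symbol and 19307 were protein coding.

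edgeR 4.0.16 in R 4.3.3 tested protein-coding genes passing filterByExpr (TMM scaling, robust quasi-likelihood F test, all 5 states in 1 fit per assay, Benjamini-Hochberg adjustment, adjusted p under 0.05). The pipeline was tested on simulated data. Alternatives were DESeq2 1.42.0, no filter, all gene types, unstranded counts, a replicate block, only the groups compared, no thapsigargin libraries, and each library left out. Full statistics are given for up to 5 called members with the largest change in each direction per comparison and assay, with library values for the extremes, the paired genes and some members chosen after their values were seen. Whether replicate numbers pair libraries was checked by correlating deviations from group means: every same-numbered pair exceeded 0.1 for cycling with quiescent Ribo-seq (0.15, 0.27 and 0.26) and for RNA-seq with Ribo-seq of etoposide cells (0.13, 0.38 and 0.20), and over all states 6 of 13 same-numbered RNA-seq and Ribo-seq pairs did, against 2 of 24 others. These 2 sets were named after their values were seen. Same-numbered quiescent RNA-seq and Ribo-seq libraries correlated at 0.57, 0.09 and 0.007. With 2 or 3 libraries per group the deviations are not independent. A pairing is thus possible but not shown, and no label states one. Replicates of a group differed by more than sampling noise, at 1.96 to 133 chi-square units per degree of freedom. The 133 was for the 2 thapsigargin RNA-seq libraries, and quiescent libraries reached 125 in RNA-seq and 117 in Ribo-seq. The members, the lists and the tests were chosen with earlier results of these data known. The labels give differing RNase times, and which libraries had which is unclear.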

Additional observations from a re-analysis of the deposited data

Results flagged for a closer look

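The 2 senescent states differed for many of these genes, by the test of the difference itself (irradiated against etoposide cells, edgeR's quasi-likelihood test). The difference was called for 25 of 53 genes in RNA-seq and 33 in Ribo-seq, against 22.6% and 21.7% of all genes. Agent and treatment schedule cannot be told apart by the design. In RNA-seq the log2 difference was -1.69 for SRPRB, -1.49 for RPN2, -1.24 for both RPN1 and KDELR3, and -1.23 for LMAN1. In Ribo-seq it was -1.98 for STT3B, -1.88 for LMAN1, -1.87 for SRPRB, -1.74 for SSR1 and -1.73 for RPN1. SRP14 footprints were the only ones higher in irradiated cells among those called, by 0.26.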

How the results depend on the processing

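The 112 named results of single genes kept their direction under all 1460 alternatives run. They kept their call in 1320 and lost it in 140, of which 106 came from leaving out a library. DESeq2 lost none. In a fit of only the groups compared, the called members were 14 (RNA-seq, quiescent), 22 (RNA-seq, etoposide), 5 (RNA-seq, thapsigargin), 21 (Ribo-seq, quiescent), 31 (Ribo-seq, etoposide), 18 and 12 (translation efficiency, irradiated against cycling and against etoposide cells) and 4 (translation efficiency, thapsigargin). DESeq2 called 2 for translation efficiency in irradiated cells, and no filter left 5 for thapsigargin. Without the filter 41.7% of the called members were higher for the senescent mean in Ribo-seq, in place of 64.3%. DESeq2 moved the median translation efficiency difference between inducers over all genes by -0.10 on the log2 scale.

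Leaving out 1 library at a time gave 10 to 25 called members in quiescent RNA-seq, 21 to 26 in irradiated RNA-seq, 4 to 12 in etoposide RNA-seq (8 without etoposide replicate 2), 4 to 10 in thapsigargin RNA-seq, 12 to 19 for the senescent mean in RNA-seq and 20 to 25 between inducers in RNA-seq. In Ribo-seq the ranges were 32 to 36, 32 to 36, 13 to 15, 16 to 22, 8 to 19 and 28 to 30. For translation efficiency under thapsigargin it was 5 to 10, and 0 in all other comparisons. The low RNA-seq counts came from leaving out cycling replicate 1 (10 and 4) or 2 (12 and 5), which leaves a single cycling library whose spread is assumed to be like that of the other groups.

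Same-numbered libraries were not shown to be paired. Over all same-numbered pairs across states, deviations from the group mean correlated at -0.19 to 0.47 (median 0.03) in RNA-seq. In Ribo-seq they correlated at -0.19 to 0.27 (median 0.02). With a replicate block the called members were 23, 28 and 13 in RNA-seq and 38, 36 and 19 in Ribo-seq for quiescent, irradiated and etoposide cells, and 8 for translation efficiency under thapsigargin (4 higher and 4 lower, in place of 6 and 2). Of the named results the block ended 3 calls: SEC24A mRNA in the senescent mean (adjusted p = 0.0563) and the translation efficiency of SPCS1 (0.0679) and SEC11A (0.0929) under thapsigargin. Depth limits the thapsigargin Ribo-seq values most, at 1936976 and 2044900 gene counts.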
